A study of Komagataella pastoris with 6 samples.

Results

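Predicted proteins are gene models that a genome annotation could not tie to a characterised gene, and the 58 described here are those whose transcripts differed between X33 grown in YPA and GS115 grown in YPA with added histidine. The members were chosen by the measured values themselves: of the 5427 rows of the count table, 368 carried a protein name with the words "predicted protein", and a row was kept where the log2 ratio of mean CPM + 1 (CPM, counts scaled to a library total of 1e6) between X33-YPA and GS115-YPAH5x was at least 1 in either direction. By this rule 33 members were higher and 25 were lower in X33-YPA, and 310 predicted proteins were not selected. Over all rows the same ratio was passed by 6.52% in the higher and by 3.34% in the lower direction, and since the rule used this contrast, nothing is read from the members' counts in it.

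The 6 libraries came from the methylotrophic yeast that the labels call Komagataella pastoris and the study calls Komagataella phaffii, all after 24 h in YPA, a medium of yeast extract, peptone and acetate. X33-YPA (libraries C and D) is the HIS4 prototroph in YPA, GS115-YPAH5x (libraries E and F) is the his4 auxotroph in YPA with 650 µM histidine added, and GS115-YPA (libraries A and B) is the same auxotroph in YPA alone. X33-YPA and GS115-YPAH5x differ both in the HIS4 allele and in added histidine, and these cannot be told apart in that contrast. The labels call both strains wild type in 1 field and separate them as HIS4 and his4 in the genotype field, which was followed.

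Yeasts that grow on acetate must make sugars from it, and an auxotroph for histidine takes this amino acid up from the medium. HIS4 codes for an enzyme with several steps of histidine synthesis, and X33 and GS115 are related laboratory strains that differ in it. A predicted protein has an open reading frame, and often relatives in nearby species (then the annotation adds the word "conserved"), but no assigned role. The regions next to the ends of yeast chromosomes often hold genes without an assigned role, and also families of adhesins, cell surface proteins by which yeast cells stick to each other and to surfaces.

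Of the 58 members, 48 were named "Conserved predicted protein" and 10 "Predicted protein", beside 326 and 42 among all 368. No UniRef entry was given for 9 members (15.5%), beside 35 of the 368 predicted proteins (9.51%). A gene ontology term stood beside 3 members (5.17%), beside 19 of the 368 predicted proteins (5.16%). None of the 58 had a KEGG orthology term, and none of the 368 had one. The 3 annotated members, chosen for this after their values were seen, are BQ9382_C1-6845, tied to the small subunit of the ribosome, BQ9382_C1-7175, tied to binding of flap-structured DNA and to repair by single-strand annealing, and BQ9382_C1-5955, tied to an integral membrane protein. The other 55 members have no role that could be stated here.

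Library totals ran from 32194047 to 43447246 counts, and the members had between 28 and 30795 counts in a library. The row for HIS4, BQ9382_C1-4895, had 207 and 231 CPM in X33-YPA, against 187 and 162 in GS115-YPAH5x and 385 and 505 in GS115-YPA. It was read in both strains, and transcript counts do not show whether the allele works, so this row does not check the strain labels. Between duplicates the median difference of the members on the log2 scale was 0.165 in X33-YPA, 0.183 in GS115-YPAH5x and 0.364 in GS115-YPA. Duplicates were at least 2-fold apart for 1 member in X33-YPA (BQ9382_C1-8275), for none in GS115-YPAH5x and for 1 in GS115-YPA (BQ9382_C3-0965). Over all 5427 rows the medians were 0.16, 0.114 and 0.22 in the same order of groups, and 12, 3 and 54 rows were at least 2-fold apart. The members' medians were thus above those of all rows, least so in X33-YPA. Over all 368 predicted proteins the medians were 0.174, 0.156 and 0.267. Beside these, the members' median was slightly lower in X33-YPA and higher in both GS115 groups.

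The scaling sets where the cut falls. By library totals the median log2 ratio of all rows was 0.273, that is, higher in X33-YPA, against 0.024 with TMM scaling, which takes the bulk of genes as level. With TMM-scaled CPM the same rule gives 11 higher and 41 lower predicted proteins in place of 33 and 25, and these include 11 of the 33 and all of the 25. The members lower in X33-YPA thus passed under either scaling, whereas most of those higher in X33-YPA passed only by library totals. The libraries of X33-YPA and GS115-YPAH5x did not overlap in 58 of 58 members, beside 79.8% of all rows and 476 of the 477 other rows past the same ratio. The rule used these same libraries and set the groups apart, so nothing is read from this count.

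Among the 25 members lower in X33-YPA the ratio ran from -3.29 to -1.03 with a median of -1.36. The lowest was a predicted protein of chromosome 4 without a UniRef entry, and BQ9382_C4-4535's levels were 4.47 and 2.73 CPM in X33-YPA, against 48.9 and 39.2 in GS115-YPAH5x and 20.2 and 25.9 in GS115-YPA. Its 2 X33-YPA libraries lay below all others, its GS115-YPAH5x libraries above all others, and GS115-YPA lay between. A conserved protein close to the end of chromosome 4 was among the 3 lowest (-2.41), and BQ9382_C4-5305's levels were 5.09 and 3.42 CPM in X33-YPA, against 30.0 and 24 in GS115-YPAH5x and 13.2 and 14.5 in GS115-YPA. It showed the same order of the 3 groups.

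The conserved BQ9382_C1-8275, the third row from the end of chromosome 1, had 51.6 and 14.5 CPM in X33-YPA, against 188 and 186 in GS115-YPAH5x and 67.6 and 82.3 in GS115-YPA. Its X33-YPA duplicates were the farthest apart of any member, and its ratio of -2.46 becomes -3.60 without library C and -1.84 without library D, while every GS115-YPAH5x value lay above every other value. BQ9382_C4-1020, another predicted protein without a UniRef entry, had 0.994 and 0.909 CPM in X33-YPA, against 5.78 and 5.33 in GS115-YPAH5x and 3 and 4.65 in GS115-YPA. BQ9382_C4-5330 had 3.88 and 3.73 CPM in X33-YPA, against 12.9 and 16 in GS115-YPAH5x and 5.75 and 5.83 in GS115-YPA. In both of these X33-YPA was lowest, GS115-YPA next and GS115-YPAH5x highest, with no overlap.

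A pair of members with many reads was high in the histidine-fed cells only. BQ9382_C4-0550 had 180.5 and 134 CPM in X33-YPA, against 709 and 617 in GS115-YPAH5x and 115 and 129 in GS115-YPA, and BQ9382_C1-7295 had 83.1 and 79.9 CPM in X33-YPA, against 350.3 and 333 in GS115-YPAH5x and 79 and 90.7 in GS115-YPA. In both, the GS115-YPAH5x libraries lay above all others and the remaining groups lay close together, with overlapping values for BQ9382_C1-7295 and with GS115-YPA slightly below X33-YPA for BQ9382_C4-0550. BQ9382_C4-3340 had 15.7 and 16.8 CPM in X33-YPA, against 58 and 42.2 in GS115-YPAH5x and 6.93 and 11.4 in GS115-YPA, so that GS115-YPA was below both other groups.

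BQ9382_C1-0005, the first row of chromosome 1, had 1.18 and 0.67 CPM in X33-YPA, against 9.67 and 8.23 in GS115-YPAH5x and 101 and 97.6 in GS115-YPA. Its levels fall into 3 steps without overlap, with GS115-YPA far above the histidine-fed cells and these above X33-YPA, and no other member had so wide a span. With few reads in X33-YPA its ratio of -2.37 depends on the CPM added, and becomes -3.14 with 0.1 CPM and -1.24 with 5 CPM, and that of BQ9382_C4-1020 (-1.75) becomes -2.43 and -0.83. BQ9382_C3-2895 had 14.2 and 11.6 CPM in X33-YPA, against 44.3 and 43 in GS115-YPAH5x and 36.6 and 52.6 in GS115-YPA, with both GS115 groups above X33-YPA and overlapping each other. The 9 members of this direction that the naming rule did not take, BQ9382_C2-6965 among them, had ratios from -1.56 to -1.10 and mean levels from 2.89 to 120 CPM in X33-YPA, from 7.98 to 304 CPM in GS115-YPAH5x and from 2.91 to 124 CPM in GS115-YPA.

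Among the 33 members higher in X33-YPA the ratio ran from 1.005 to 2.10 with a median of 1.13, a narrower range than in the other direction. The conserved BQ9382_C3-4670 had 39.5 and 35.3 CPM in X33-YPA, against 9.37 and 6.61 in GS115-YPAH5x and 10.2 and 5.34 in GS115-YPA, and its ratio of 2.10 becomes 1.85 with TMM scaling. The row after it is also a member, BQ9382_C3-4675, with 17.9 and 14.3 CPM in X33-YPA, against 5.09 and 3.45 in GS115-YPAH5x and 8.34 and 5.94 in GS115-YPA. In both, the X33-YPA libraries stood above the other 4, and GS115-YPA overlapped GS115-YPAH5x in BQ9382_C3-4670 but lay just above it in BQ9382_C3-4675.

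BQ9382_C2-6445 had 41.1 and 43.6 CPM in X33-YPA, against 12.6 and 8.86 in GS115-YPAH5x and 7.01 and 5.44 in GS115-YPA, and BQ9382_C1-6185 had 28.8 and 32.1 CPM in X33-YPA, against 10.6 and 10.005 in GS115-YPAH5x and 7.67 and 7.08 in GS115-YPA. In both the order was X33-YPA, GS115-YPAH5x, GS115-YPA, without overlap. BQ9382_C1-3125 had 24.8 and 22.6 CPM in X33-YPA, against 8.82 and 5.83 in GS115-YPAH5x and 8.69 and 5.16 in GS115-YPA, with overlap of both GS115 groups. BQ9382_C3-5445, with few reads, had 4.66 and 3.8 CPM in X33-YPA, against 1.1 and 0.888 in GS115-YPAH5x and 2.42 and 2.24 in GS115-YPA, and there GS115-YPA lay between the others.

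In 3 of the 10 highest, the GS115-YPA level reached or passed that of X33-YPA. BQ9382_C3-0965 had 24.2 and 28.4 CPM in X33-YPA, against 8.54 and 8.33 in GS115-YPAH5x and 32.7 and 14.5 in GS115-YPA, its GS115-YPA duplicates falling on either side of X33-YPA. BQ9382_C4-2130 had 12.3 and 9.45 CPM in X33-YPA, against 3.73 and 3.13 in GS115-YPAH5x and 13.6 and 9.51 in GS115-YPA, with overlap of X33-YPA and GS115-YPA. BQ9382_C4-0075, a predicted protein without a UniRef entry near the start of chromosome 4, had 11.2 and 12.1 CPM in X33-YPA, against 4.4 and 3.58 in GS115-YPAH5x and 21.2 and 14.2 in GS115-YPA, so that GS115-YPA was above both other groups. BQ9382_C1-5955, the member tied to a membrane protein, had 41.7 and 52.3 CPM in X33-YPA, against 18.4 and 16.9 in GS115-YPAH5x and 32.9 and 23.1 in GS115-YPA, with GS115-YPA between. These 10, from BQ9382_C3-4670 to BQ9382_C4-0075 in the order of the ratio, are all among the 11 that pass with TMM scaling. The 15 members of this direction that the naming rule did not take, BQ9382_C1-7175 among them, had ratios from 1.02 to 1.31, which become 0.77 to 1.13 with TMM scaling, and mean levels from 4.35 to 58.5 CPM in X33-YPA, from 1.43 to 26.5 CPM in GS115-YPAH5x and from 1.22 to 30.8 CPM in GS115-YPA.

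**Figure D1:**
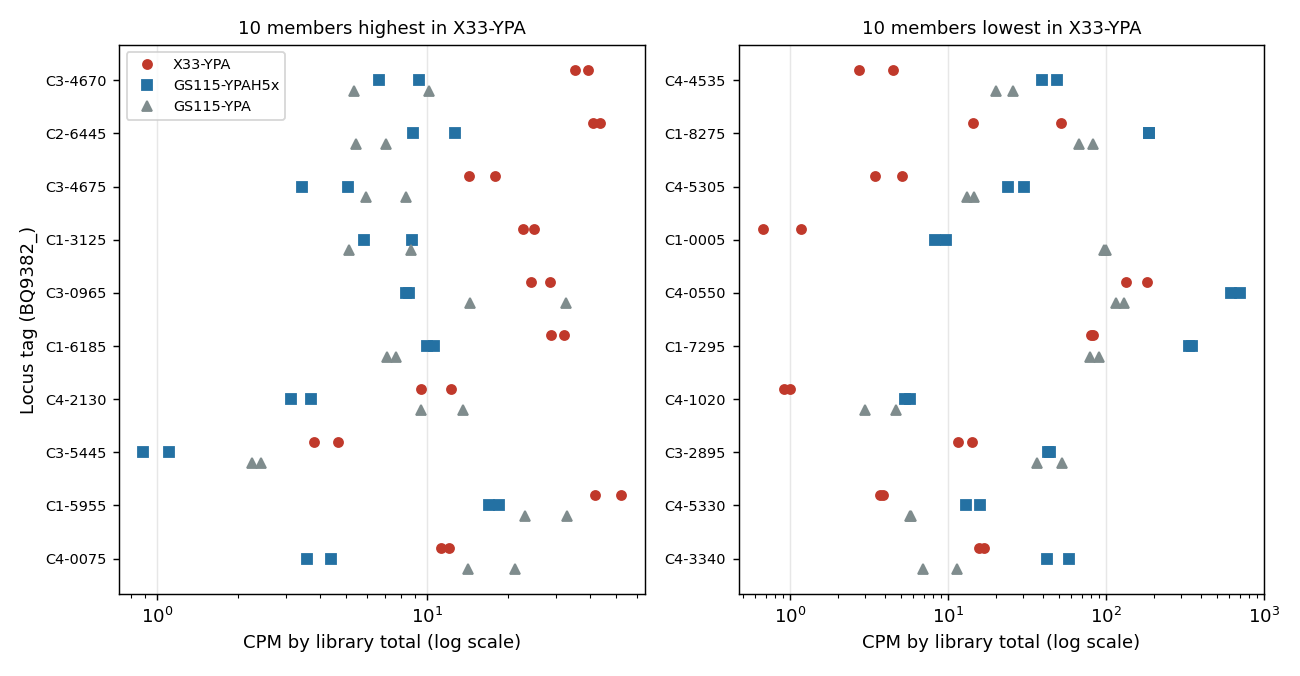
CPM by library total (log axis) of the 10 members highest (left) and the 10 lowest (right) in X33-YPA relative to GS115-YPAH5x, with 1 point per library and 2 libraries per group. X33-YPA and GS115-YPAH5x points do not overlap in any row, and GS115-YPA reaches 101 and 97.6 CPM for C1-0005.

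**Figure D2:**
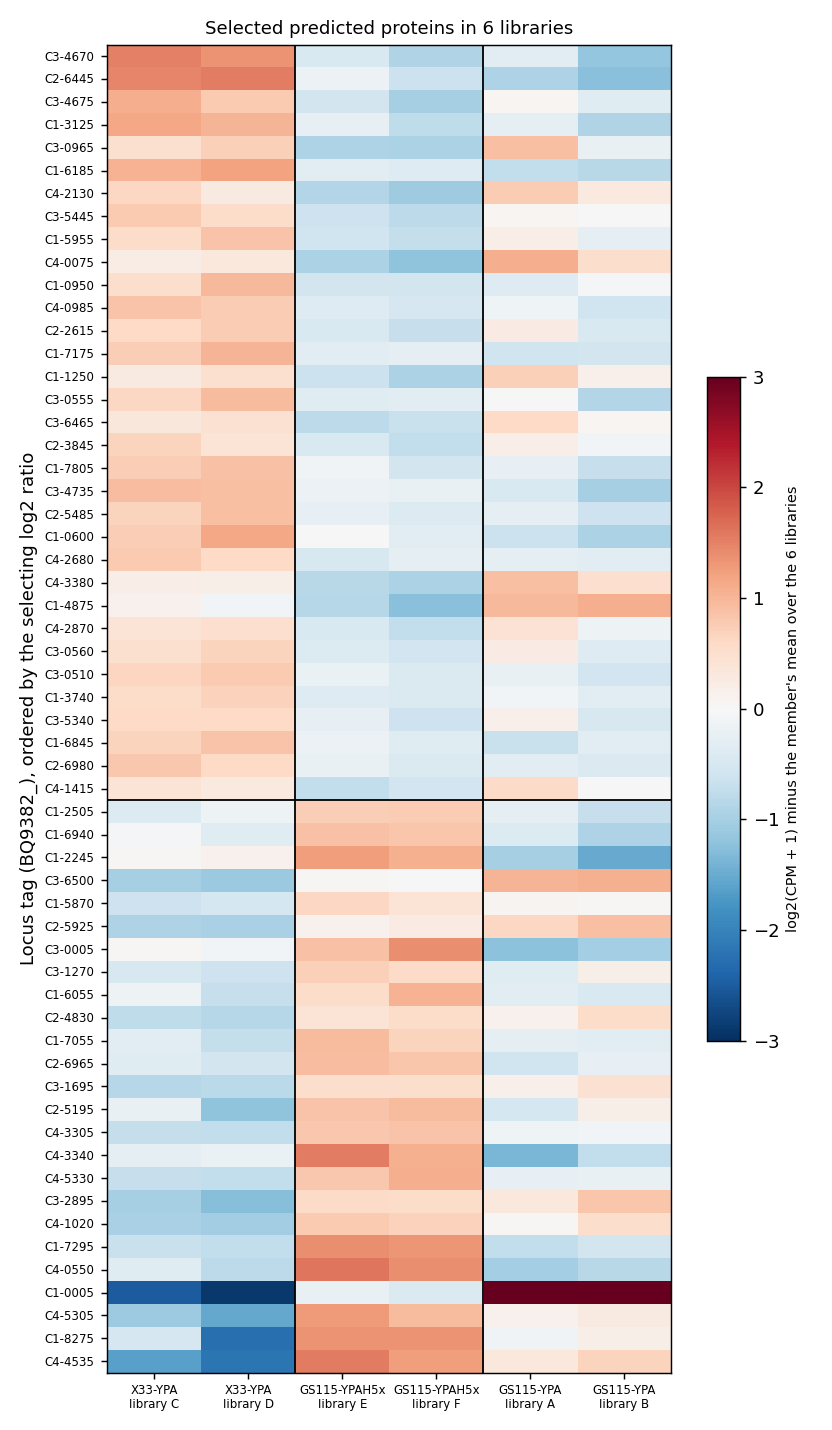
log2(CPM + 1) of all 58 members in the 6 libraries, each minus the member's mean over the libraries, ordered by the selecting ratio with the 33 higher members above the line and the 25 lower ones below it. The color scale ends at 3 in either direction, which C1-0005 exceeds in GS115-YPA, and the GS115-YPA columns lie nearer to either of the other groups, or beyond both, depending on the member.

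At the edges of the rule, the members just inside in the higher direction were BQ9382_C4-1415 (1.005), BQ9382_C2-6980 (1.02) and BQ9382_C1-6845 (1.02), and the predicted proteins just outside were BQ9382_C1-6230 (0.994), BQ9382_C2-0765 (0.994) and BQ9382_C3-4045 (0.99). In the lower direction BQ9382_C1-2505 (-1.03), BQ9382_C1-6940 (-1.05) and BQ9382_C1-2245 (-1.07) were just inside, and BQ9382_C1-0020 (-0.99), BQ9382_C1-3640 (-0.95) and BQ9382_C4-3035 (-0.94) just outside. The values on either side of each edge differ by less than the shift between scalings.

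The GS115-YPA libraries took no part in the selection, so the question that could be tested is to which of the other groups GS115-YPA was nearer. The level of GS115-YPA was compared with the midpoint of X33-YPA and GS115-YPAH5x on the log2 scale, a contrast that shares no difference between libraries with that of the rule, in 1 edgeR quasi-likelihood fit over all genes with Benjamini-Hochberg adjustment. Distances are log2 of GS115-YPA minus that midpoint, so that 0 is halfway. At an adjusted p under 0.05, GS115-YPA was nearer to X33-YPA in 17 members (29.3%), nearer to GS115-YPAH5x in 24 (41.4%) and not called in 17. Of all genes tested 24.9% were called nearer to X33-YPA and 42.1% nearer to GS115-YPAH5x, and of the 477 other rows past the same ratio 19.5% and 52.4%. The members' shares are thus near those of all genes, most of which are not past the ratio. Beside the other rows past the ratio, the members' share was higher for X33-YPA and lower for GS115-YPAH5x, with no test of the difference. By direction, 6 of the 33 higher members were nearer to X33-YPA and 16 nearer to GS115-YPAH5x, whereas 11 of the 25 lower members were nearer to X33-YPA and 8 nearer to GS115-YPAH5x. The other rows past the ratio had 33 and 190 of 321 in the higher direction and 60 and 60 of 156 in the lower one. The median distance of GS115-YPA from the midpoint was -0.31 over the members and -0.01 over all genes. Over the 477 other rows past the ratio it was -0.49, with -0.59 in the higher and -0.03 in the lower direction. A median below 0 is therefore not particular to the members.

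In several members lower in X33-YPA, GS115-YPA was low as well and was called nearer to X33-YPA. BQ9382_C1-2245 had 21.3 and 22.9 CPM in X33-YPA, against 51 and 44.1 in GS115-YPAH5x and 9.88 and 6.64 in GS115-YPA (distance -2.05, SE 0.17, adjusted p = 5.62e-06 from edgeR). BQ9382_C3-0005, the first row of chromosome 3, had 51.3 and 46.8 CPM in X33-YPA, against 93.1 and 133 in GS115-YPAH5x and 20.6 and 24.2 in GS115-YPA (-1.80, SE 0.17, adjusted p = 1.38e-05 from edgeR). In both, GS115-YPA was below both other groups. The same test called BQ9382_C4-0550 (-1.47, SE 0.15, adjusted p = 2.42e-05 from edgeR), BQ9382_C1-7295 (-1.04, SE 0.13, adjusted p = 6.75e-05 from edgeR) and BQ9382_C4-3340 (-1.70, SE 0.23, adjusted p = 0.000109 from edgeR). Transcripts of these 5 were highest in the histidine-fed cells, where the rule had already set GS115-YPAH5x above X33-YPA.

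Among the members higher in X33-YPA, BQ9382_C1-4875 had 24.9 and 21 CPM in X33-YPA, against 12 and 8.8 in GS115-YPAH5x and 45.5 and 49 in GS115-YPA (1.55, SE 0.14, adjusted p = 8.78e-06 from edgeR), and BQ9382_C4-3380 had 13.3 and 13 CPM in X33-YPA, against 6.03 and 5.43 in GS115-YPAH5x and 22.3 and 16.8 in GS115-YPA (1.09, SE 0.14, adjusted p = 9.75e-05 from edgeR). Together with BQ9382_C4-0075 (1.30, SE 0.17, adjusted p = 0.000116 from edgeR), these had GS115-YPA above both other groups and GS115-YPAH5x lowest. BQ9382_C4-2130 was also called nearer to X33-YPA (0.85, SE 0.18, adjusted p = 0.00221 from edgeR), while BQ9382_C3-0965 was not (0.58, SE 0.25, adjusted p = 0.065 from edgeR). Its value is -0.04 without library A and 1.03 without library B.

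Calls nearer to GS115-YPAH5x were led by BQ9382_C1-0005 (5.05, SE 0.15, adjusted p = 2.5e-08 from edgeR). BQ9382_C3-6500, the row before the last of chromosome 3, had 24.1 and 22.3 CPM in X33-YPA, against 50.9 and 49 in GS115-YPAH5x and 101 and 104 in GS115-YPA (1.52, SE 0.10, adjusted p = 1.44e-06 from edgeR), and BQ9382_C2-5925 had 47.9 and 45.9 CPM in X33-YPA, against 100.4 and 108 in GS115-YPAH5x and 142 and 174 in GS115-YPA (1.11, SE 0.13, adjusted p = 3.92e-05 from edgeR). In all 3, X33-YPA was lowest and GS115-YPA above both other groups. BQ9382_C4-4535's place between the groups was called in the same direction (0.82, SE 0.19, adjusted p = 0.00329 from edgeR), as was that of BQ9382_C3-2895 (0.85, SE 0.16, adjusted p = 0.000959 from edgeR). BQ9382_C4-1020 (0.68, SE 0.24, adjusted p = 0.0278 from edgeR) had 0.28 without library B and an adjusted p of 0.321 from edgeR, and its call was lost also without library D, E or F.

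Among the higher members, GS115-YPA was below the midpoint and called nearer to the histidine-fed cells in BQ9382_C2-6445 (-1.85, SE 0.18, adjusted p = 1.57e-05 from edgeR), BQ9382_C1-6185 (-1.33, SE 0.14, adjusted p = 2.41e-05 from edgeR) and BQ9382_C3-4670 (-1.24, SE 0.24, adjusted p = 0.00117 from edgeR). BQ9382_C1-0600 had 167 and 225 CPM in X33-YPA, against 99.3 and 80.8 in GS115-YPAH5x and 64.1 and 51.7 in GS115-YPA (-1.27, SE 0.17, adjusted p = 0.000134 from edgeR), and BQ9382_C1-6845, the member tied to the ribosome, had 185 and 208 CPM in X33-YPA, against 102 and 89.6 in GS115-YPAH5x and 71.7 and 91.7 in GS115-YPA (-0.81, SE 0.15, adjusted p = 0.00107 from edgeR). In these 5 both X33-YPA libraries were above the other 4. GS115-YPA lay below both other groups in BQ9382_C2-6445, BQ9382_C1-6185 and BQ9382_C1-0600, and overlapped GS115-YPAH5x in BQ9382_C3-4670 and BQ9382_C1-6845. BQ9382_C3-4675 (-0.29, SE 0.20, adjusted p = 0.23 from edgeR), BQ9382_C3-5445 (0.11, SE 0.22, adjusted p = 0.671 from edgeR) and BQ9382_C1-5955 (-0.12, SE 0.16, adjusted p = 0.53 from edgeR) were not called.

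Of the members near chromosome ends, BQ9382_C4-5305's distance was not called (0.31, SE 0.17, adjusted p = 0.127 from edgeR), but reached 0.48 with an adjusted p of 0.0327 from edgeR without library C. BQ9382_C1-8275 was not called either (-0.12, SE 0.36, adjusted p = 0.782 from edgeR), and it was called in opposite directions without library C (0.48, adjusted p = 0.0211 from edgeR) and without library D (-0.39, adjusted p = 0.0481 from edgeR). The call of BQ9382_C4-5330 nearer to X33-YPA (-0.42, SE 0.16, adjusted p = 0.0414 from edgeR) was lost on leaving out any 1 library. Away from the ends, at row 283 of 1068 on chromosome 4, BQ9382_C4-1415 was not called (0.50, SE 0.20, adjusted p = 0.0527 from edgeR). Its distance was 0.77 without library B.

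**Figure D3:**
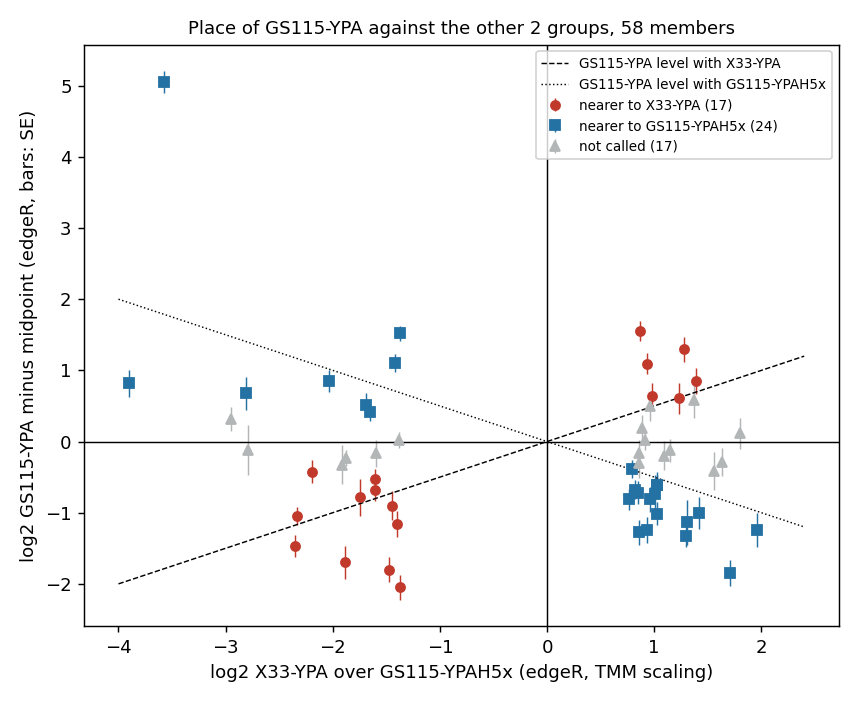
Distance of GS115-YPA from the midpoint of the other groups (vertical, log2, bars are SE) against the log2 difference of X33-YPA and GS115-YPAH5x from the same edgeR fit (horizontal), 1 point per member. Points near the dashed line have GS115-YPA level with X33-YPA and points near the dotted line level with GS115-YPAH5x, and C1-0005 stands apart at 5.05.

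Counted by libraries without overlap, GS115-YPA lay above both other groups in 6 members (3 of each direction) and below both in 10 (5 of each direction), beside 32.7% and 26.6% of all rows. It lay between them in 18, beside 8.55% of all rows, and overlapped at least 1 of them in 24, beside 32.1%. The rule set the other groups apart and so made room between them, and nothing is read from these shares.

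The comparisons with GS115-YPA share libraries with the rule and with each other and are given as a description. In X33-YPA against GS115-YPA, 27 members were higher and 17 lower at an adjusted p under 0.05 from edgeR, beside 33.4% and 32.8% of all genes. In GS115-YPAH5x against GS115-YPA, 25 members were higher and 14 lower, beside 30.7% and 29.1% of all genes. Of the 33 members higher in X33-YPA, 24 were called higher and 3 lower for X33-YPA, with a median log2 fold change of 1.08, and 5 higher and 11 lower for GS115-YPAH5x, with a median of -0.12. Of the 25 members lower in X33-YPA, 3 were called higher and 14 lower for X33-YPA, with a median of -0.67, and 20 higher and 3 lower for GS115-YPAH5x, with a median of 1.28. The medians over all genes were 0.01 and 0.00.

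Set against GS115-YPA, BQ9382_C4-4535's log2 fold change was -2.77 for X33-YPA and 1.13 for GS115-YPAH5x, and BQ9382_C4-5305's were -1.78 and 1.16 in the same order. These are opposite in sign. BQ9382_C1-0005 had -6.84 and -3.26, below GS115-YPA in both, while BQ9382_C2-6445 had 2.71 and 0.997, above it in both. The rule itself chose members for a difference between these fold changes.

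By locus tag, 20 members lie on chromosome 1 (11 higher, 9 lower in X33-YPA), 9 on chromosome 2 (5 and 4), 15 on chromosome 3 (10 and 5) and 14 on chromosome 4 (7 and 7). These are 17.7%, 9.57%, 19.0% and 17.1% of the predicted proteins of each chromosome, against 15.8% in all. Both directions thus occur on every chromosome. In only 2 places were members next to each other in tag order, BQ9382_C3-4670 with BQ9382_C3-4675 and BQ9382_C3-0555 with BQ9382_C3-0560, and each pair shared its direction. BQ9382_C3-0555 had 12.1 and 15.4 CPM in X33-YPA, against 5.59 and 5.83 in GS115-YPAH5x and 7.65 and 3.65 in GS115-YPA, and BQ9382_C3-0560 had 21 and 24 CPM in X33-YPA, against 11 and 9.64 in GS115-YPAH5x and 17.7 and 11.1 in GS115-YPA. In both, the X33-YPA libraries were above the other 4. The distance from the midpoint was called in BQ9382_C3-0555 (-0.74, SE 0.26, adjusted p = 0.0303 from edgeR), though not without library B (-0.32) or library D (-0.58), and was not called in BQ9382_C3-0560 (-0.16, SE 0.18, adjusted p = 0.464 from edgeR).

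Members lower in X33-YPA were frequent among the first and last rows of the chromosomes. Within 20 rows of an end lay 7 of the 25 lower members (28.0%) and 3 of the 33 higher ones (9.09%), beside 32 of all 368 predicted proteins (8.70%) and 2.95% of all rows. The 7 were the same within 10 rows. They are BQ9382_C1-0005 and BQ9382_C3-0005, which open chromosomes 1 and 3, BQ9382_C1-8275, BQ9382_C3-6500, BQ9382_C4-5330 and the third lowest member, which stand among the last rows of theirs, and BQ9382_C2-6965 near the end of chromosome 2. With TMM scaling 11 of 41 lower (26.8%) and 1 of 11 higher members lay there. These are shares of small counts, given with no test, and the rows are those of the count table, whose ends need not be those of the chromosomes.

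The 7 did not share 1 pattern over the groups. GS115-YPA was far above the others in BQ9382_C1-0005 and above them in BQ9382_C3-6500, was below them in BQ9382_C3-0005, and lay between them in BQ9382_C4-5330, BQ9382_C1-8275 and the third lowest member. BQ9382_C2-6965 had 127 and 113 CPM in X33-YPA, against 313 and 294 in GS115-YPAH5x and 109 and 139 in GS115-YPA, with overlap of X33-YPA and GS115-YPA, and was called nearer to X33-YPA (-0.69, SE 0.14, adjusted p = 0.00204 from edgeR). Just outside the rule, BQ9382_C1-0020, the fourth row of chromosome 1, averaged 2313 CPM in X33-YPA, against 4604 in GS115-YPAH5x and 80.1 in GS115-YPA. Its difference between X33-YPA and GS115-YPAH5x is small beside that between either and GS115-YPA, and GS115-YPA was lowest there, whereas it was highest in BQ9382_C1-0005, 3 rows away.

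**Figure D4:**
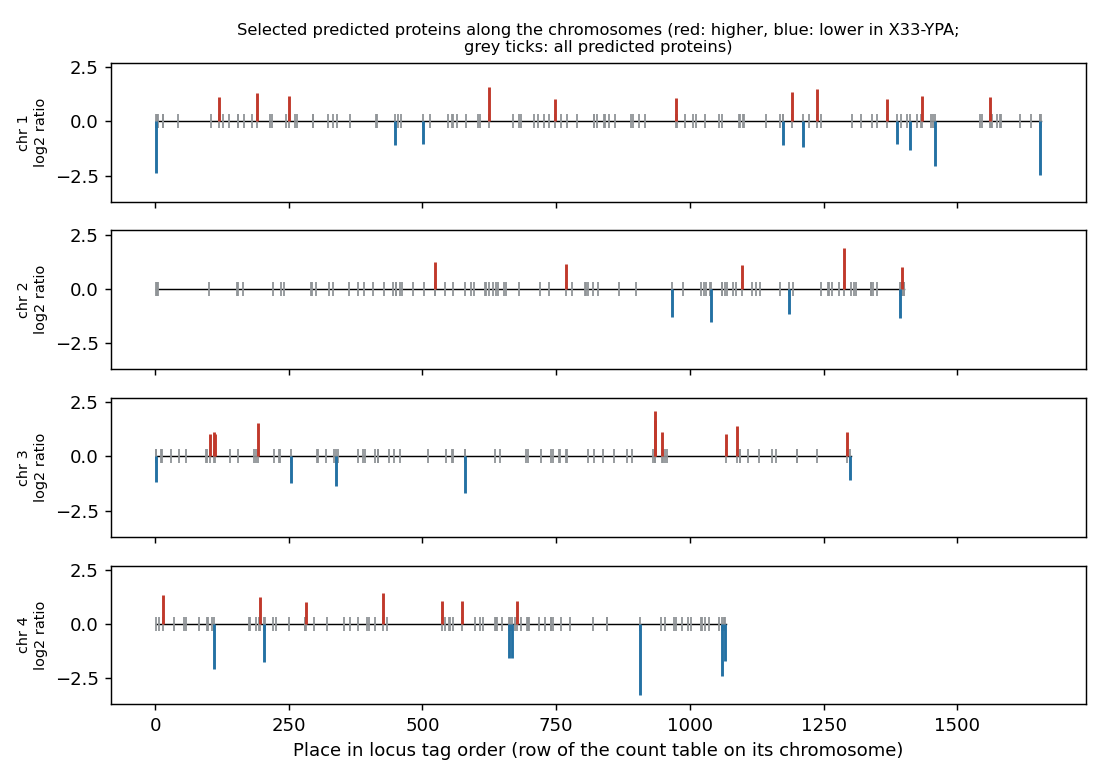
Selecting log2 ratio of each member (red bars higher, blue bars lower in X33-YPA) at its place in locus tag order on chromosomes 1 to 4, with grey ticks for all predicted proteins. Blue bars stand at both ends of chromosome 1 and of chromosome 3, and 7 of the 25 lie within 10 rows of an end.

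Rows beside the members were followed because overlapping or antisense transcripts may share reads: the strand setting of the counting is not given in the sources used here. Of the 48 rows next to the 25 lower members that were not members themselves, 13 were past the same ratio in the same direction (27.1%, beside 3.34% of all rows) and 1 in the opposite one, with a median ratio of -0.32. Of the 62 rows next to the 33 higher members, 8 were past it in the same direction (12.9%, beside 6.52%) and none in the opposite one, with a median of 0.40, close to the 0.27 of all rows. With TMM scaling these were 20 of 78 (25.6%, beside 6.26% of all rows) for the lower members and 0 of 20 (beside 1.99%) for the higher ones. Whether shared reads have a part in these values was not tested.

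BQ9382_C4-4535's neighbors, on either side of the lowest member, are BQ9382_C4-4530, annotated as a papain-like cysteine protease, which averaged 554 CPM in X33-YPA, against 3584 in GS115-YPAH5x and 525 in GS115-YPA, and BQ9382_C4-4540, annotated as aspartokinase, the enzyme that opens the synthesis of threonine and methionine in baker's yeast, which averaged 139 CPM in X33-YPA, against 295 in GS115-YPAH5x and 409 in GS115-YPA. The ratios of these neighbors were -2.69 and -1.08, in the direction of the member. GS115-YPA was called nearer to GS115-YPAH5x in BQ9382_C4-4540, as in the member, and nearer to X33-YPA in BQ9382_C4-4530.

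BQ9382_C4-3340 stands between BQ9382_C4-3335 (ratio -2.58) and BQ9382_C4-3345 (ratio -3.22), which averaged 46.5 CPM in X33-YPA, against 440.1 in GS115-YPAH5x and 74.5 in GS115-YPA, and the ratios of both neighbors were farther below 0 than that of the member (-1.57). The names given to these rows are those of viral and bacterial proteins and are not used here. BQ9382_C4-0550 stands between BQ9382_C4-0545 (ratio -1.22), annotated as a subunit of the AP-1 clathrin adaptor, which sorts cargo in the Golgi, and BQ9382_C4-0555 (ratio -1.36), annotated as the ubiquitin-binding protein CUE2. BQ9382_C2-5925 stands between a ribonuclease T2-like row, BQ9382_C2-5920 (ratio -1.62), and a protein phosphatase, BQ9382_C2-5930 (ratio -1.27). In these 4 places both neighbors were past the ratio in the member's direction.

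Among the higher members, BQ9382_C3-4670 follows BQ9382_C3-4665, annotated as the ribosomal protein L43 of the large subunit, which averaged 378 CPM in X33-YPA, against 162 in GS115-YPAH5x and 153 in GS115-YPA. BQ9382_C2-6445 precedes BQ9382_C2-6450, annotated as the transaminase of gamma-aminobutyrate, an amino acid that yeast can use as a nitrogen source, which averaged 77.6 CPM in X33-YPA, against 33.9 in GS115-YPAH5x and 13.4 in GS115-YPA. In both neighbors, as in the members, X33-YPA was highest and GS115-YPA was called nearer to GS115-YPAH5x. The other neighbors past the ratio beside higher members were mixed. The call matched that of the member in BQ9382_C4-0080 and BQ9382_C2-6985, and was the opposite of it in BQ9382_C3-4730. BQ9382_C1-0595 and BQ9382_C1-3735 were not called though their members were, and BQ9382_C4-1420 was not called, like its member.

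Adhesins with a GLEYA domain, a sugar-binding domain of yeast surface proteins, stand after 3 of the lower members, a list chosen after the values were seen. The table holds 5 rows with this annotation, which have 6 predicted proteins beside them, and 3 of the 6 are members, BQ9382_C1-8275, BQ9382_C4-5330 and the third lowest member. Of all 368 predicted proteins 15.8% are members. These 3 are also among the lower members near chromosome ends listed above, so the count is not separate from that one. The adhesin row after BQ9382_C1-8275, BQ9382_C1-8280, had 1.15 and 0.598 CPM in X33-YPA, against 48.4 and 25.6 in GS115-YPAH5x and 116 and 93.6 in GS115-YPA. BQ9382_C4-5305's adhesin row, BQ9382_C4-5310, had 30.7 and 30.3 CPM in X33-YPA, against 53.7 and 55.1 in GS115-YPAH5x and 217 and 220.4 in GS115-YPA, and the row after BQ9382_C4-5330, BQ9382_C4-5335, had 96.8 and 70.4 CPM in X33-YPA, against 99.96 and 83.1 in GS115-YPAH5x and 219 and 228 in GS115-YPA. These 3 adhesin rows were highest in GS115-YPA, whereas the members before them were highest in GS115-YPAH5x. Of the other 2 rows with the annotation, which have no member beside them, BQ9382_C1-7265 averaged 2.61 CPM in X33-YPA, against 3.2 in GS115-YPAH5x and 44.6 in GS115-YPA, and BQ9382_C3-6445 averaged 588 CPM in X33-YPA, against 923 in GS115-YPAH5x and 88.5 in GS115-YPA. The first was also highest in GS115-YPA, and the other was lowest there. BQ9382_C3-6500 is followed by the last row of chromosome 3, BQ9382_C3-6505, annotated as agglutinin-like protein 3, which averaged 4.12 CPM in X33-YPA, against 42.6 in GS115-YPAH5x and 293 in GS115-YPA, in the same order of the groups as the member. Close copies of such genes may share reads, and their part in these values was not tested.

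**Figure D5:**
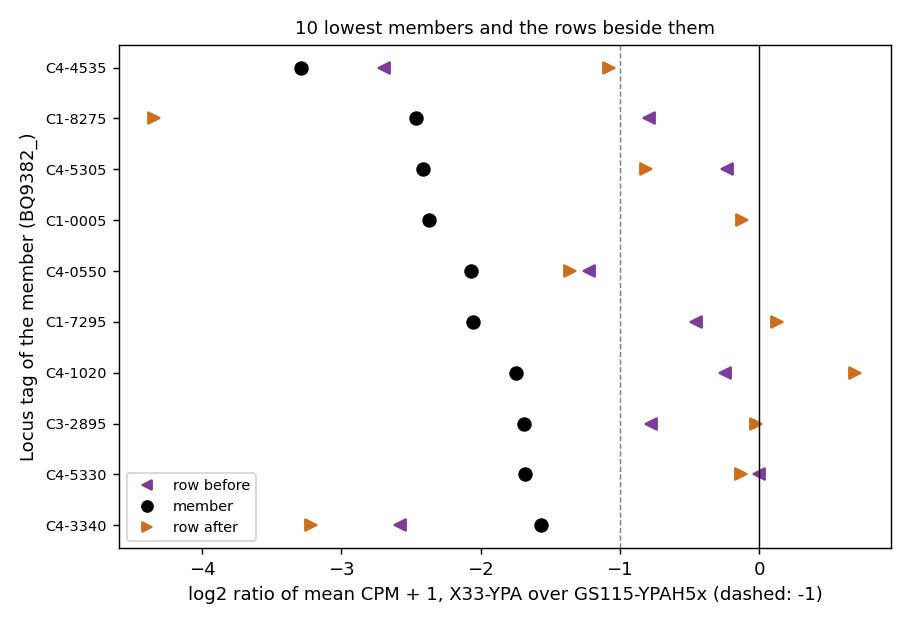
Log2 ratio of mean CPM + 1, X33-YPA over GS115-YPAH5x, of the 10 lowest members (circles) and of the rows directly before and after each in locus tag order (triangles). The dashed line marks a ratio of -1, and both neighbors lie beyond it for 3 of the 10 members, the top one among them.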

How the data were processed

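RNA was sequenced in 6 libraries, 2 from each of 3 groups, after depletion of ribosomal RNA with a kit made for bacteria. The study describes cultures in duplicate. Where duplicates do not come from separate cultures, p-values measure only the spread between these samples, which may be technical. The deposited values are whole-number counts of reads for each gene and library, as the authors made them. DESeq2, featureCounts 1.6.4, Bowtie2, fastp 0.19.6 and bcl2fastq 2.19.0.316 stand in the submitters' processing notes, without roles. The genome build and the strand setting: not given in the sources used here.

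Members and lists were chosen with earlier results of these data known. CPM were computed from library totals, and the ratio used group means plus 1 CPM. Tests used R 4.3.3 and edgeR 4.0.16 (filter by group, 5426 of 5427 genes kept, TMM, legacy quasi-likelihood, all 6 libraries, no covariate, 3 residual degrees of freedom, common biological coefficient of variation 0.132, SE from the F value, Benjamini-Hochberg adjustment over all genes tested). The procedure was tested on simulated data in which only GS115-YPA was changed. Genes selected for a difference between X33-YPA and GS115-YPAH5x were not simulated, so that case was not tested. Members named singly are the 10 highest and 10 lowest by ratio, up to 6 by the smallest adjusted p of the midpoint test on either side, up to 4 with GS115-YPA above and up to 4 below both groups, adjacent members, those 3 at each edge of the threshold, and BQ9382_C4-4535 and BQ9382_C4-5305. Other members named were chosen after their values were seen. Alternatives were DESeq2 1.42.0, other scalings, pseudocounts, filters and thresholds, and each library left out in turn, while TMM selection for position and neighbors, and a minimum of 100 counts for neighbors, were added after the data were seen. No genome or sequence of these locus tags was used here. Levels are not compared between genes, since lengths were not used.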

Additional observations from a re-analysis of the deposited data

How the results depend on the processing

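The number of members depends on the scaling and the cut. Of the 33 higher and 25 lower predicted proteins, TMM and DESeq2 size factors each gave 11 and 41, a threshold of 1.5 in log2 gave 5 and 12, and a pseudocount of 5 CPM gave 9 higher and 17 lower, while 0.1 CPM gave 46 and 33. Without single libraries the counts ran from 25 to 43 and from 25 to 34. The midpoint calls, 17 nearer to X33-YPA and 24 nearer to GS115-YPAH5x, were 19 and 24 with DESeq2, which added BQ9382_C3-0965 and BQ9382_C4-1415, and 9 and 11 with an added distance of at least 1, and from 13 to 20 and from 18 to 27 without single libraries. Selected by TMM, 1 higher and 11 lower members lay near chromosome ends, and 0 and 20 neighbors were past the ratio. TMM scaling changes both the selection and the neighbors' own ratios, and the cause of these changes was not tested further. Midpoint values changed sign, without single libraries, in BQ9382_C3-0965 (-0.041 to 1.03), BQ9382_C1-5955 (-0.319 to 0.084, above 0 without GS115-YPA replicate 2 and, at 0.029, without X33-YPA replicate 2), BQ9382_C1-8275 (-0.392 to 0.484, above 0 without X33-YPA replicate 1 and, at 0.087, without GS115-YPA replicate 1) and BQ9382_C3-0560 (-0.45 to 0.114). None of these was called with all libraries, and the cause was not tested. Of the other midpoint values of the members named, 409 kept their direction and side of the threshold over the settings, 12 gained and 15 lost a call. No ratio of a member named changed sign under the alternatives run. No paired analysis was possible because the libraries carry letters and no shared replicate numbers. In rows with few counts the added CPM moves the ratio: BQ9382_C1-0005 had -2.37 with 1 CPM, -3.14 with 0.1 and -1.24 with 5, and BQ9382_C4-1020 had -1.75, -2.43 and -0.83.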
